A study of Danio rerio with 8 samples.

Results

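Transfer RNA is modified at many positions after transcription, and the genes examined here encode some of the enzymes and partner proteins that do this. Not among them is the KEOPS complex, which makes threonylcarbamoyl adenosine (t6A) and whose catalytic subunit is encoded by osgep. The members were a fixed list of 44 gene symbols matched exactly to the symbols of the deposited table. Rows were found for 43 of them among 35197 rows, and all 43 were abundant enough to test. The remaining symbol is not analysed here. The study sequenced RNA from 8 zebrafish larvae, each taken alone at 6 days of age (6 dpf): 4 were zygotic osgep G177A/G177A homozygotes and the other 4 their wild-type siblings. Each library came from 1 whole larva, so a lower level may reflect fewer cells of a type or less RNA per cell, which whole-larva RNA cannot separate. The labels name no agent or second allele for either group and give 1 husbandry protocol for all larvae.

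Modified bases cluster in the anticodon loop. At the wobble position, Elongator, its methyltransferase Alkbh8 and the thiolation enzymes Ctu1 and Ctu2 build a bulky uridine that tunes codon reading, the Adat2 and Adat3 heterodimer converts adenosine to inosine, and the queuine transferase subunits Qtrt1 and Qtrt2 insert queuosine. The base next to the anticodon on its 3′ side carries t6A, isopentenyl adenosine, methylguanosine or wybutosine depending on the tRNA. Outside the anticodon loop, methyltransferases, pseudouridine synthases and dihydrouridine synthases act on the body of the tRNA and mainly affect its folding and stability. These roles are known chiefly from yeast and mammals.

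Estimated counts per library totalled between 14398812 and 19052599. TMM scaling factors were 0.732 to 1.07 in wild-type and 0.951 to 1.23 in homozygous larvae, so the scaling itself differed between the groups, and with libraries scaled by their totals alone the median over all rows of the log2 fold change moved from 0.02 to 0.40. osgep itself, in CPM, the counts scaled to a library of common size with TMM, lay at 1.64 to 3.68 in homozygotes and at 5.55 to 11.5 in wild-type larvae without overlap; G177A is a sequence change, so this level is no direct check of the genotype labels. Wild-type 1 and homozygote 2 stood apart from the rest of their groups in the TMM factor. It was 1.07 in wild-type 1 against 0.732 to 0.900 in the others, and 0.951 in homozygote 2 against 1.19 to 1.23. Rows called in the whole table numbered 226 with all larvae. They numbered 2130 without wild-type 1, 1158 without homozygote 2 and 3952 (18.3%) without both. As leaving these larvae out raised the number of calls, a call in those settings is no independent support for a gene. The tissue label was borne out by markers of muscle, skin, liver, gut, pancreas, lens, retina, neurons and blood, of which 19 of 20 had a row and were abundant enough to test; the symbol try was not found. By edgeR 0 of these 19 were called, with 11 lower and 0 higher at an unadjusted p under 0.05, against 12.4% and 9.84% of all rows. The number called, all lower, was 5 by DESeq2, 2 with the replicate block, and by edgeR 5 without wild-type 1, 8 without homozygote 2 and 12 without both. In the same order these settings called 7.89%, 1.55%, 9.76%, 5.31% and 18.3% of all rows. Their summed level was 59428 to 117162 CPM in wild-type and 42289 to 78688 CPM in homozygous larvae. Of 22 neutrophil and macrophage markers, 12 were called lower in homozygotes by edgeR, against 0.769% of all rows. DESeq2 called 18 lower, along with 7.89% of all rows. Without homozygote 1 edgeR called 8 lower, along with 0.266% of all rows. The summed level of the list was 3338 to 7430 CPM in wild-type and 2657 to 4104 CPM in homozygous larvae. The 2 most abundant genes, cpa5 and apoeb, made up most of that sum, which is therefore not read as a leukocyte level. cpa5 rose and fell with the pancreas gene prss1. In wild-type 1 to 4 cpa5 had 1155, 3465, 2001 and 1208 CPM and prss1 2163, 6842, 3949 and 2247 CPM. In homozygotes 1 to 4 cpa5 had 1300, 2255, 931 and 1213 CPM and prss1 1868, 3195, 1342 and 1633 CPM. Without them, a choice made after their values were seen, the other 20 summed to 820 to 1815 CPM in wild-type and 296 to 432 CPM in homozygous larvae, with no overlap. Of 18 genes of dividing cells 0 were called by edgeR. At an unadjusted p under 0.05 by edgeR 7 were lower and 1 higher, against 12.4% and 9.84% of all rows. Their summed levels were 805 to 1268 CPM in wild-type and 731 to 978 CPM in homozygous larvae. Of these genes 1 was called lower with no filter, and DESeq2 called 1 lower and 1 higher, where 1.18% and 7.89% of all rows were called. By edgeR 5 were called lower and 1 higher without wild-type 1, 3 lower and 1 higher without homozygote 2, and 7 lower and 1 higher without both. The shares of all rows called there were 9.76%, 5.31% and 18.3%. The part of these differences in the results below was not tested.

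None of the 43 members passed the test of homozygous against wild-type larvae. In the quasi-likelihood test of edgeR, with p-values adjusted after Benjamini and Hochberg over all 21447 tested rows, 0 members had an adjusted p under 0.05, where 1.05% of all rows did (0.284% higher and 0.769% lower in homozygotes). At an unadjusted p under 0.05 there were 6 members, all with higher means in homozygotes: ctu2, wdr4, trmt6, trmu, adat2 and thg1l. Over all rows 22.3% reached that level, 9.84% with higher and 12.4% with lower means in homozygotes. The groups did not overlap in 3 members (6.98%), ctu1, ctu2 and wdr4, each with homozygotes above wild-type; over all rows this was so in 10.4%, in 5.5% with homozygotes above and in 4.95% with homozygotes below. DESeq2 called 2 members, ctu2 and wdr4, where it called 7.89% of all rows, and limma voom called 0, against 0.709% of all rows. The settings that called 0 members called 0.574% of all rows with library totals, 1.11% with other size factors, 1.18% with no filter, 1.29% at a minimum count of 50, 1.55% with the replicate block and 0.919% with 1 surrogate variable. Without wild-type 1, 2 members were called (ctu2 and trmt6) and 9.76% of all rows. No member was called without any other single library, where the shares of all rows were 0.328%, 0.173% and 1.4% without wild-type 2, 3 and 4 and 0.266%, 5.31%, 0.318% and 0.484% without homozygotes 1 to 4.

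The members' log2 fold changes lay between -0.54 (gtpbp3) and 0.71 (wdr4), with 24 above 0 and 19 below. Their median was 0.10, against 0.02 over all rows. With libraries scaled by totals alone 38 of the 43 lay above 0 and the median was 0.49, or 0.09 above the median of all rows under that scaling, so the direction of the smaller changes depended on the scaling while their place relative to other genes moved little. The 95% interval of the change, from the edgeR fit with TMM, lay within 2-fold in either direction for 32 members. It reached beyond 2-fold for the other 11, so for those 11 a change of that size was not excluded by these data. The split holds for TMM scaling alone. For trmt6, 1 of the 32, the interval ended at 0.998 on the log2 scale, and the estimate with libraries scaled by totals was 0.93.

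**Figure D1:**
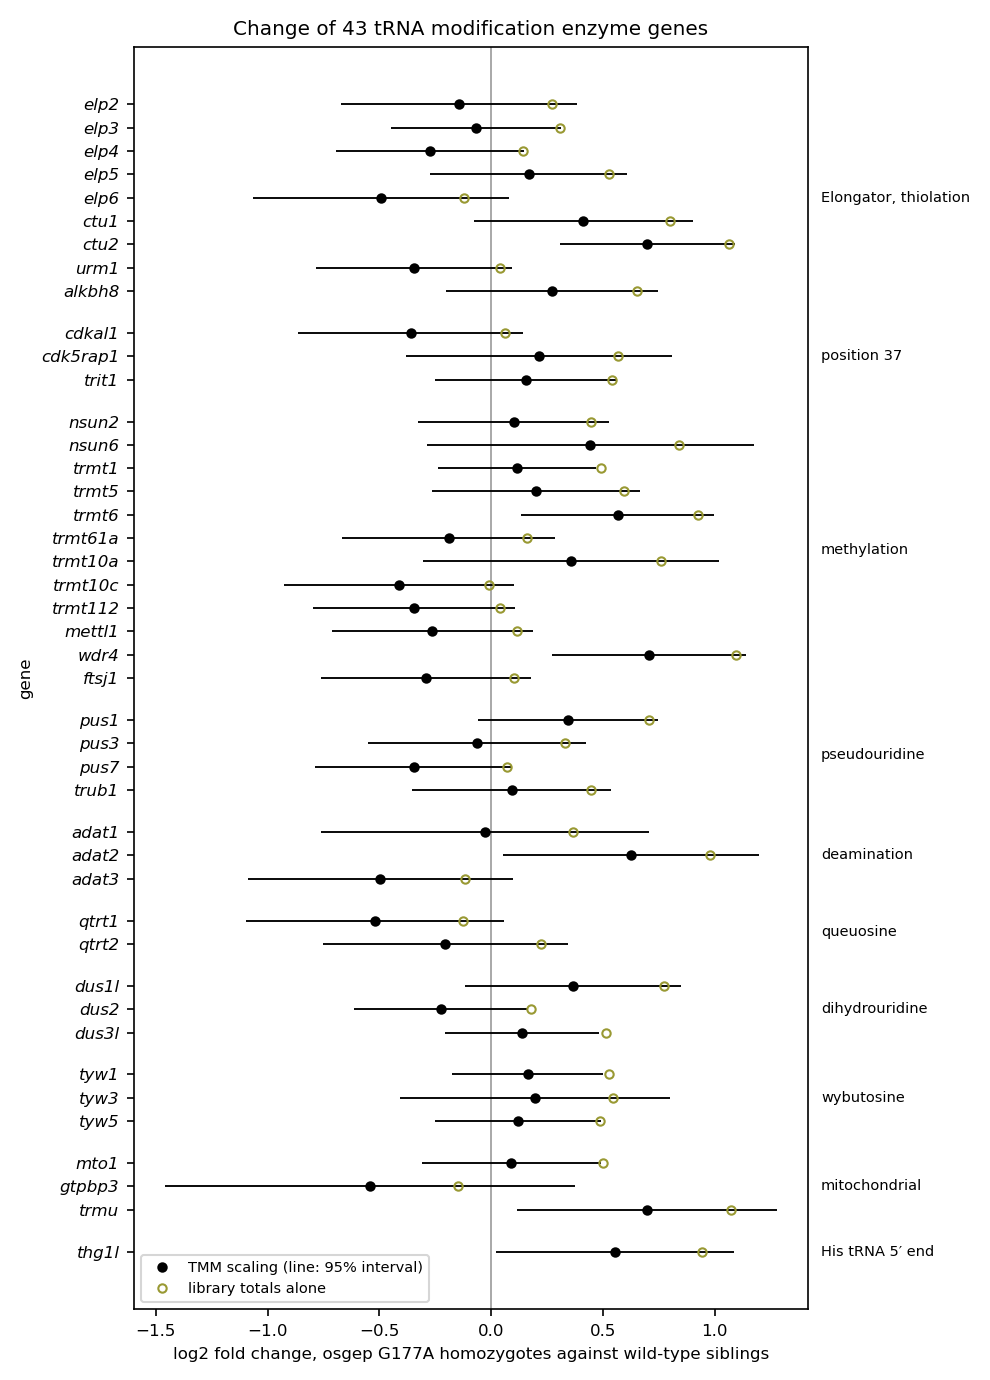
Log2 fold change of each of the 43 members, osgep G177A homozygotes against wild-type siblings (4 larvae each), grouped by modification. Filled points are the edgeR estimate after TMM scaling with its 95% interval as a line, and open circles the estimate with libraries scaled by their totals alone; open circles lie to the right of the filled points throughout, and the largest filled values are those of wdr4 (0.71), ctu2 (0.70) and trmu (0.70).

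Of the 9 wobble uridine genes, 4 had a log2 fold change above 0 and 5 below. ctu2, which encodes a subunit of the cytosolic thiolase, had 7.40, 6.08, 5.90 and 5.20 CPM in wild-type 1 to 4 and 10.4, 9.97, 9.77 and 9.82 CPM in homozygotes 1 to 4. Every homozygote thus lay above every wild-type larva. The SD of log2 CPM among the homozygotes, 0.039, was below the 0.10 expected from counting alone, so their closeness is not read as a result. Its mean was 1.62-fold higher (log2 fold change 0.70, SE 0.18) and missed the threshold (adjusted p = 0.0705 by edgeR). The adjusted p was 0.0135 by DESeq2. By edgeR it was 0.0253 when wild-type 1 was left out and 0.213, the highest, when wild-type 3 was left out. With wild-type 1 and homozygote 2 both left out it was 0.0151 by edgeR, in a setting that called 18.3% of all rows. Reads of ctu2 were partly shared with other genes, as its estimated counts were not whole numbers.

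ctu1, which encodes the catalytic partner of Ctu2, stood at 2.92, 2.79, 3.08 and 2.92 CPM in wild-type and at 3.51, 3.46, 4.08 and 4.53 CPM in homozygous larvae. Its groups did not overlap either, at 34 to 52 reads per wild-type larva and 61 to 97 per homozygote. The SD of log2 CPM among wild-type larvae, 0.058, was below the 0.21 expected from counting alone. Its difference was 0.41 on the log2 scale (SE 0.23; edgeR adjusted p = 0.298). urm1, which encodes the sulfur carrier that feeds the thiolase, averaged 12.4 ± 2.18 CPM in wild-type larvae and 9.75 ± 2.24 CPM in homozygotes (SD, n = 4 each), a difference of -0.35 on the log2 scale (edgeR adjusted p = 0.332). Without wild-type 1 and homozygote 2 it was called lower (log2 fold change -0.59, adjusted p = 0.0406 by edgeR), in a setting that called 18.3% of all rows; with libraries scaled by totals it was 0.04. alkbh8, for the methyltransferase that completes the Elongator side chain, had a log2 fold change of 0.27 (SE 0.22).

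The Elongator subunit genes showed small differences with overlapping groups. Their log2 fold changes were -0.15 for elp2, -0.07 for elp3, which encodes the catalytic subunit, -0.27 for elp4, 0.17 for elp5 and -0.49 for elp6. The widest of them, elp6, stood at 4.60, 6.65, 4.89 and 6.30 CPM in wild-type and at 4.30, 5.78, 2.93 and 2.99 CPM in homozygous larvae. Homozygotes 1, 3 and 4 were below all wild-type larvae, and homozygote 2 was not (adjusted p = 0.29 by edgeR). With libraries scaled by totals the values of elp2, elp3 and elp4 turned positive, between 0.14 and 0.31.

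cdkal1 is the member whose substrate is made by KEOPS, since in mammals its product adds a methylthio group to t6A of a lysine tRNA. It had 6.45, 13.2, 9.32 and 8.0 CPM in wild-type 1 to 4 and 8.27, 7.82, 6.84 and 5.80 CPM in homozygotes 1 to 4. The groups overlapped, with the widest spread among the wild-type larvae. The difference was -0.36 on the log2 scale (SE 0.23, 95% interval -0.86 to 0.14, adjusted p = 0.377 by edgeR), and 0.06 with libraries scaled by totals. cdk5rap1, for the mitochondrial methylthiolation enzyme acting on isopentenyl adenosine, and trit1, for the enzyme that makes isopentenyl adenosine, had overlapping groups, with differences of 0.21 (SE 0.28) and 0.15 (SE 0.19) on the log2 scale.

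The 12 methylation genes had 7 log2 fold changes above 0 and 5 below, with a median of 0.11. wdr4 encodes the partner subunit that holds the catalytic Mettl1 on tRNA for 7-methylguanosine. It stood at 4.26, 4.68, 4.83 and 3.74 CPM in wild-type and at 8.27, 7.14, 7.01 and 6.12 CPM in homozygous larvae, so that the lowest homozygote was above the highest wild-type larva. The difference rested on 57 to 76 reads per wild-type larva and 126 to 158 per homozygote. Its mean was 1.63-fold higher (log2 fold change 0.71, SE 0.20, adjusted p = 0.0861 by edgeR). The adjusted p was 0.0272 by DESeq2, 0.0536 with libraries scaled by totals and 0.0608 to 0.208 by edgeR when 1 library was left out. In the gene order of the RefSeq table wdr4 overlaps pde9aa, which was not among the tested rows. Reads of such overlapping genes may be counted together. mettl1 itself was at 7.40, 10.3, 8.51 and 8.35 CPM in wild-type and 6.45, 9.35, 7.41 and 5.52 CPM in homozygotes, with a log2 fold change of -0.26 (SE 0.21).

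trmt6 and trmt61a encode the binding and the catalytic subunit of the 1-methyladenosine enzyme. trmt6 stood at 12.0, 8.63, 7.24 and 7.18 CPM in wild-type and at 14.9, 12.1, 13.1 and 11.8 CPM in homozygous larvae. Wild-type 1 reached the range of the homozygotes and the other 3 wild-type larvae lay below it. On the log2 scale its difference was 0.57 (SE 0.20; edgeR adjusted p = 0.131). Without wild-type 1 it was called (adjusted p = 0.0278 by edgeR), in a setting that called 9.76% of all rows. Without wild-type 1 and homozygote 2 its log2 fold change was 0.82 (adjusted p = 0.0147 by edgeR), where 18.3% of all rows were called. Its estimated counts were not whole numbers either. In the RefSeq order trmt6 overlaps chgb, with a log2 fold change of -0.17 (SE 0.20), and trmt61a overlaps ckba, at -0.34 (SE 0.25). trmt61a had a log2 fold change of -0.19 (SE 0.22), with values from 6.90 to 8.70 CPM in wild-type and from 5.28 to 9.75 CPM in homozygous larvae.

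The other methyltransferase genes had overlapping groups. nsun2 and nsun6, for 5-methylcytidine enzymes, had log2 fold changes of 0.10 and 0.44, the second on 14 to 44 reads per larva. trmt1, for the dimethylguanosine enzyme, had 0.12, trmt5, for the 1-methylguanosine enzyme acting beside the anticodon, 0.20, and trmt10a, for a 1-methylguanosine enzyme of the tRNA body, 0.36. Values below 0 were those of trmt10c, whose product also belongs to mitochondrial ribonuclease P (-0.41), of trmt112, which encodes a small activator of several methyltransferases including Alkbh8 (-0.34), and of ftsj1, for a ribose methyltransferase of the anticodon loop (-0.29). In trmt10c, trmt112 and ftsj1 wild-type 2 was the highest of the 8 larvae, at 23.2, 17.5 and 17.9 CPM. With libraries scaled by totals the log2 fold changes of these 3 genes were -0.01, 0.04 and 0.10.

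Of the 4 pseudouridine synthase genes, pus1 had the smallest p. It stood at 8.81, 7.31, 8.65 and 7.01 CPM in wild-type and at 11.1, 11.6, 8.17 and 9.54 CPM in homozygotes, with homozygote 3 inside the wild-type range (log2 fold change 0.34, SE 0.19, adjusted p = 0.289 by edgeR). pus7 stood at 24.5, 49.3, 27.5 and 29.7 CPM in wild-type and at 25.1, 28.6, 24.4 and 24.7 CPM in homozygotes. Its log2 fold change of -0.35 (SE 0.20) came with a high wild-type 2, and with libraries scaled by totals it was 0.07. In the RefSeq order pus7 overlaps srpk2, which had a log2 fold change of -0.47 (SE 0.22). pus3 and trub1 had log2 fold changes of -0.06 and 0.09. trub1 stood at 6.83 to 7.06 CPM in the 4 wild-type larvae and at 5.95 to 10.1 CPM in homozygotes. Its wild-type SD of log2 CPM, 0.025, was below the 0.14 expected from counting alone.

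Inosine at the wobble position is made by the Adat2 and Adat3 heterodimer, in which Adat2 carries the active site, and its genes lay on opposite sides of 0. adat2 stood at 5.61, 4.60, 3.42 and 2.63 CPM in wild-type and at 7.70, 6.97, 5.19 and 5.24 CPM in homozygous larvae. The groups overlapped through wild-type 1. Its difference was 0.62 on the log2 scale (SE 0.27; edgeR adjusted p = 0.19). adat3 stood at 3.25, 4.27, 3.95 and 2.51 CPM in wild-type and at 2.43, 3.29, 2.18 and 2.01 CPM in homozygotes, with a log2 fold change of -0.50 (SE 0.28, adjusted p = 0.303 by edgeR). In the gene order of the RefSeq table adat3 overlaps osgepl1, which encodes the mitochondrial counterpart of Osgep and had a log2 fold change of -0.40 (SE 0.41), and adat2 overlaps aig1, at -0.49 (SE 0.25); reads from such pairs may be counted together. adat1, for the deaminase of an alanine tRNA, had a log2 fold change of -0.03 (SE 0.34) on 23 to 46 reads per larva. It overlaps gabarapl2, which had a log2 fold change of -0.56 (SE 0.21).

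Both queuosine genes had lower means in homozygotes. qtrt1, for the catalytic subunit, stood at 6.96, 13.6, 6.84 and 9.22 CPM in wild-type and at 7.13, 8.50, 4.48 and 5.38 CPM in homozygous larvae (log2 fold change -0.52, SE 0.27, adjusted p = 0.268 by edgeR). Homozygotes 3 and 4 were below all wild-type larvae. qtrt2, for its partner, had a log2 fold change of -0.21 (SE 0.25), or 0.22 with libraries scaled by totals; its wild-type values ran from 4.32 to 10.2 CPM and enclosed those of the homozygotes.

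Among the dihydrouridine synthase genes, dus1l stood at 4.43, 7.06, 4.89 and 4.61 CPM in wild-type and at 7.93, 6.91, 6.79 and 5.33 CPM in homozygotes (log2 fold change 0.37, SE 0.22, adjusted p = 0.35 by edgeR). Wild-type 2 lay within the range of the homozygotes. For dus2 the log2 fold change was -0.22 (SE 0.18), and for dus3l it was 0.14 (SE 0.16). The wybutosine genes lay close together, at 0.16 for tyw1, whose product forms the tricyclic core, 0.20 for tyw3, a later methyltransferase of the pathway, and 0.12 for tyw5, a hydroxylase. tyw1 stood at 19.0, 15.4, 20.6 and 20.3 CPM in wild-type and at 21.6, 23.7, 20.3 and 18.9 CPM in homozygotes, and its 95% interval of -0.17 to 0.50 was the narrowest of the members. tyw3 stood at 2.92, 1.81, 2.41 and 3.44 CPM in wild-type and at 3.62, 3.34, 2.26 and 2.99 CPM in homozygotes, with its groups overlapping. As for ctu2 and trmt6, its estimated counts were not whole numbers.

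Mitochondrial tRNAs receive a taurine-containing wobble uridine from Mto1 and Gtpbp3 and its thiolation from Trmu. trmu stood at 3.65, 4.03, 2.28 and 2.04 CPM in wild-type and at 3.91, 4.99, 5.46 and 5.00 CPM in homozygous larvae. Only wild-type 2 reached above the lowest homozygote. The mean was 1.62-fold higher (log2 fold change 0.70, SE 0.27, adjusted p = 0.157 by edgeR). trmu is the 1 member on the chromosome of osgep, 634 annotated genes away from it in the RefSeq order. mto1 had a log2 fold change of 0.09 (SE 0.19); it overlaps the uncharacterized LOC110440141 in the RefSeq order, which was called higher (2.56, SE 0.46, adjusted p = 0.0208 by edgeR). The third gene, gtpbp3, had a log2 fold change of -0.54 (SE 0.43) on 13 to 31 reads per larva, the fewest of any member: it stood at 0.785, 1.89, 2.08 and 1.17 CPM in wild-type and at 0.963, 1.59, 0.888 and 0.608 CPM in homozygotes. Its interval, from -1.46 to 0.38, was the widest.

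thg1l encodes the enzyme that adds a guanylate to the 5′ end of the histidine tRNA. It stood at 2.69, 3.61, 2.28 and 3.09 CPM in wild-type and at 5.15, 4.48, 3.51 and 4.02 CPM in homozygous larvae. Homozygote 3 fell just short of wild-type 2, and the other 3 homozygotes were above all wild-type larvae. The homozygotes exceeded the wild-type larvae by 0.56 on the log2 scale (SE 0.25; edgeR adjusted p = 0.208).

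**Figure D2:**
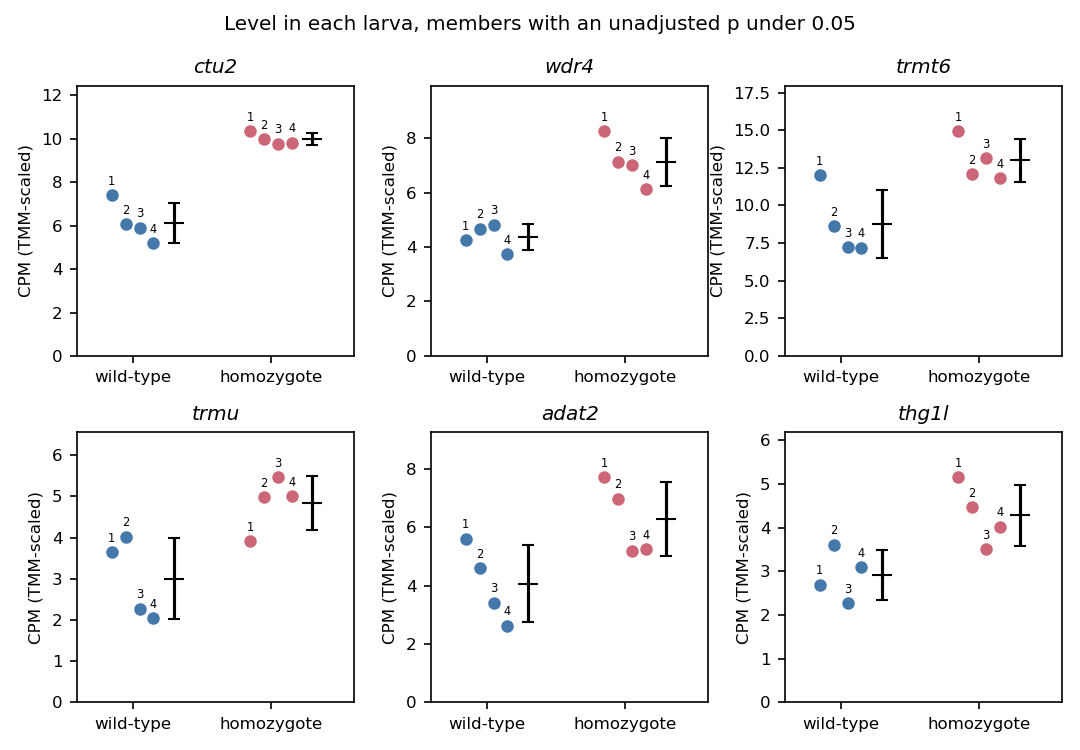
Level of the 6 members with an unadjusted p under 0.05, in CPM, for each of the 4 wild-type and 4 homozygous larvae (numbered by replicate), with mean and SD as bars. The groups are apart in ctu2 (highest wild-type 7.40, lowest homozygote 9.77) and wdr4 (4.83 and 6.12) and overlap in the other 4.

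Several of these enzymes work as pairs, and the ratio of 2 partner genes within a larva does not depend on how libraries are scaled. For each of 6 pairs the log2 ratio of counts entered an exact permutation test, two-sided, over the 8 larvae, whose smallest possible p is 0.0286. The adat2 to adat3 ratio was 0.78, 0.11, -0.21 and 0.06 in wild-type 1 to 4 and 1.65, 1.08, 1.25 and 1.37 in homozygotes 1 to 4. All homozygotes were above all wild-type larvae, by 1.15 on the log2 scale or 2.22-fold (exact permutation p = 0.0286, adjusted over the 6 pairs 0.0857). The mettl1 to wdr4 ratio was 0.79, 1.13, 0.81 and 1.15 in wild-type and -0.36, 0.39, 0.08 and -0.15 in homozygous larvae. It was lower in each homozygote, by a log2 difference of -0.98 or 1.97-fold (exact permutation p = 0.0286, adjusted 0.0857). Neither passed after adjustment, though both were at the smallest possible p. With 2 of 6 pairs at that p the adjusted value is 0.0857, and it would be lower with more pairs there. No conclusion is drawn from that failure. Groups that did not overlap were common in these libraries, at 10.4% of all single rows. The share among ratios of other gene pairs was not computed. The lack of overlap in these 2 ratios is therefore not read as particular to them.

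In the other 4 pairs the groups overlapped. The trmt6 to trmt61a ratio had means of 0.14 ± 0.40 in wild-type and 0.95 ± 0.49 in homozygotes (SD, n = 4; exact permutation p = 0.0571, adjusted 0.114). The differences, homozygote minus wild-type on the log2 scale, were -0.31 for ctu1 to ctu2 (exact permutation p = 0.143), -0.36 for qtrt1 to qtrt2 (0.114) and 0.63 for mto1 to gtpbp3 (0.143), the last resting on the few reads of gtpbp3. The direction of all 6 differences was the same whichever library was left out. For adat2 to adat3 and mettl1 to wdr4 it could not change, as their groups did not overlap. Without 1 library the smallest possible p is 0.0571, so no pair could pass there. The pairs were tested with the members' changes known, and the ratios of adat2 to adat3, mettl1 to wdr4 and trmt6 to trmt61a repeat the opposite signs given above rather than adding to them.

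**Figure D3:**
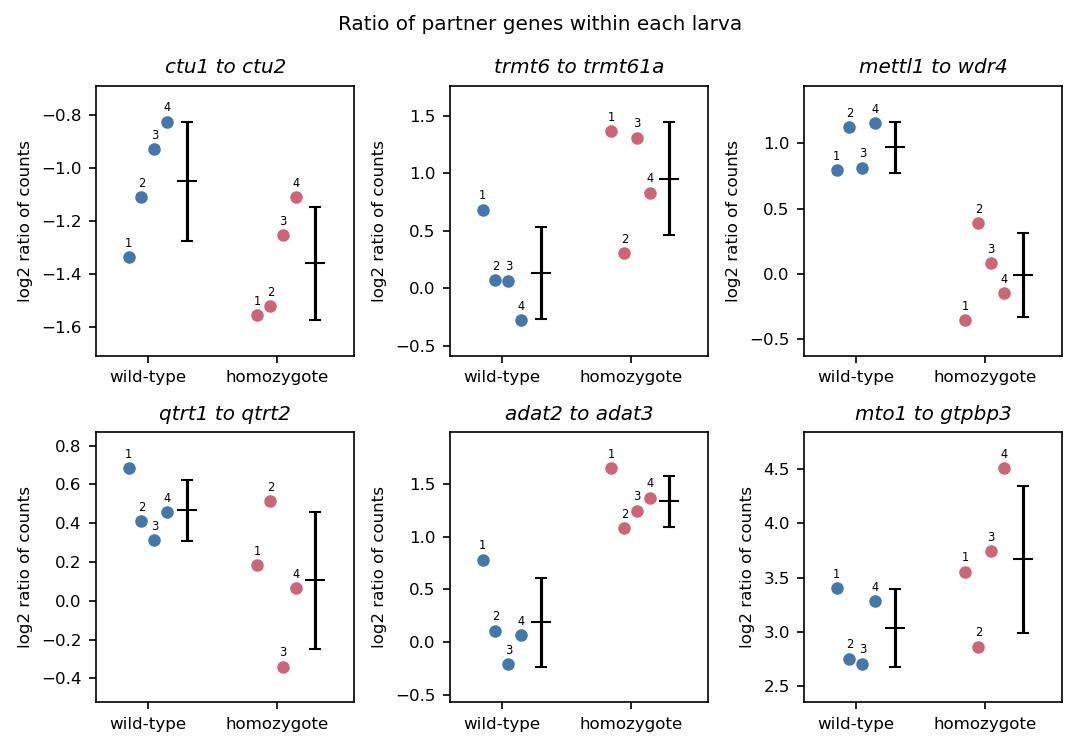
Log2 ratio of the counts of 2 partner genes within each larva, for 6 pairs; points are the 4 wild-type and 4 homozygous larvae with their replicate numbers, bars the mean and SD, and vertical axes do not start at 0. The groups are apart for mettl1 to wdr4 (means 0.97 and -0.01) and adat2 to adat3 (0.19 and 1.34). How often ratios of other gene pairs are apart was not computed.

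The median over members of the SD of log2 CPM was 0.29 among wild-type larvae and 0.25 among homozygotes, and that of the SD from counting alone was 0.13 and 0.12. The median member had 130 reads per larva. Single larvae were often high or low together. Wild-type 2 was the highest wild-type larva in 22 members, or 51.2%, against 30.6% of all tested rows, and homozygote 2 the highest homozygote in 23, or 53.5%, against 30.5%. Homozygote 4 was the lowest homozygote in 20 members (46.5%, against 25.9% of all rows). Relative to the wild-type mean, the median member stood at -0.10, 0.24, -0.04 and -0.03 on the log2 scale in wild-type 1 to 4 and at 0.08, 0.26, -0.03 and -0.01 in homozygotes 1 to 4, so that the spread between larvae of 1 group exceeded the difference between the groups. Wild-type 2 also had the lowest TMM factor, 0.732, and the highest summed level of the leukocyte, dividing-cell and tissue markers; their part in its high values was not tested.

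**Figure D4:**
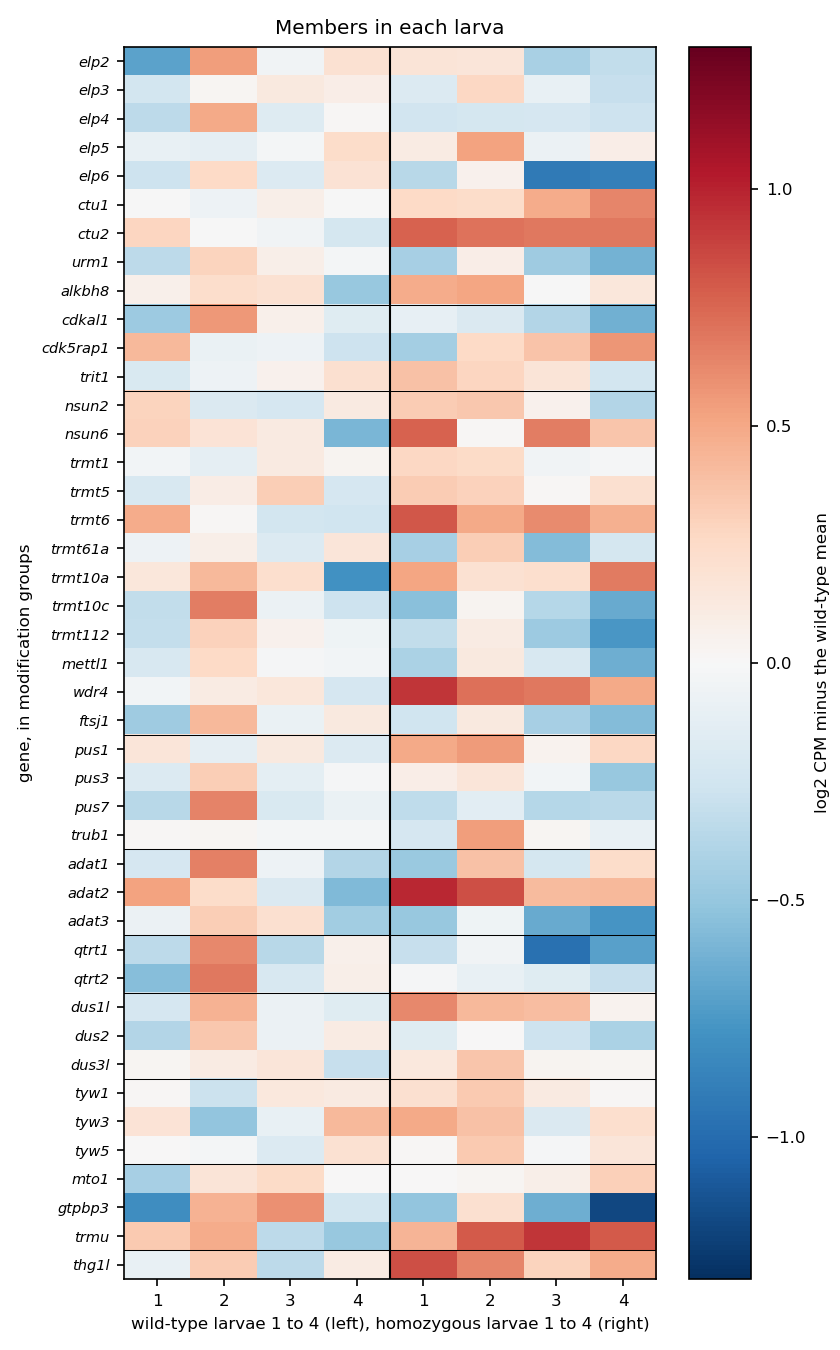
Level of each member in each larva as log2 CPM minus the wild-type mean, with wild-type larvae 1 to 4 left and homozygotes 1 to 4 right of the vertical line and horizontal lines between modification groups. Rows of ctu2 and wdr4 are above the wild-type mean in all 4 homozygotes, as are those of ctu1, trmt6, adat2, trmu, thg1l and several others. Rows of elp4, cdkal1, pus7, adat3, qtrt1 and qtrt2 are below it in all 4. Wild-type 2 is high in many rows (the highest wild-type larva in 22 of 43).

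Of 40 further genes listed as tRNA modification genes 37 were found and tested, and 0 passed by edgeR, against 1.05% of all rows. The list includes mrm1 and rtraf, whose main known human roles are not in tRNA modification. By edgeR 5 were higher and 0 lower at an unadjusted p under 0.05, against 9.84% and 12.4% of all rows. Their median log2 fold change was 0.04. The groups did not overlap in 7 of the 37 (18.9%), 5 with homozygotes above and 2 with homozygotes below, against 10.4% of all rows. mrm1 is counted both among these 7 and among the genes with an unadjusted p under 0.05. wdr6, for the partner of Ftsj1 in methylating the wobble ribose, stood at 6.56, 6.74, 5.83 and 6.42 CPM in wild-type and at 12.2, 9.18, 11.2 and 9.91 CPM in homozygotes (log2 fold change 0.73, SE 0.18, adjusted p = 0.0612 by edgeR). All homozygotes were above all wild-type larvae, while ftsj1 itself had -0.29. DESeq2 called wdr6 (adjusted p = 0.00773), along with 7.89% of all rows. It was also called by edgeR without wild-type 1, without homozygote 2 and without both (adjusted p = 0.0339, 0.0383 and 0.0152). In those settings 9.76%, 5.31% and 18.3% of all rows were called. The next smallest p-values were those of mrm1, whose human counterpart methylates mitochondrial ribosomal RNA (log2 fold change 1.29, SE 0.44, at only 0.415 CPM in wild-type), and of trmt13, for a ribose methyltransferase of tRNA (0.68, SE 0.29). Of 27 tested genes for trimming, splicing and export of tRNA 0 passed by edgeR. At an unadjusted p under 0.05 by edgeR there were 2 higher and 1 lower, against the same shares of all rows. The smallest p-values were those of ssb, for the La protein (0.41, SE 0.15), rpp25l (0.71, SE 0.27) and pop7 (-0.68, SE 0.26), the last 2 for ribonuclease P subunits. Among 5 KEOPS and t6A genes measured, osgep was the 1 that passed (log2 fold change -1.66, SE 0.29, adjusted p = 0.0187 by edgeR). Its call was lost with libraries scaled by totals (adjusted p = 0.0536 by edgeR) and with any of 4 single larvae left out, at adjusted p-values by edgeR of 0.0722 and 0.0855 for wild-type 2 and 3 and of 0.0608 and 0.0516 for homozygotes 1 and 3.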

How the data were processed

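Per the labels' protocols, each library was made from the total RNA of a single larva after ribosomal RNA depletion with random priming. The deposited table holds the authors' estimated counts (expected counts) per gene, which were not normalized. The submitters' processing notes name Trimmomatic, STAR 2.7, RSEM and danRer11; settings, annotation and strand handling are not given in the sources used here, so reads of overlapping genes may be counted together (20 members overlap another gene in the RefSeq table of GRCz12tu, a different build, from which no coordinates are given). Counts were rounded, kept where filterByExpr (minimum count 10) passed them, and scaled with TMM, and CPM use the scaled library sizes. Genotype was the only term in edgeR 4.0.16 (R 4.3.3, robust quasi-likelihood fit, threshold 0.05); SEs derive from the F statistic. Ratios used counts plus 0.5 and scipy 1.17.1. Alternatives used DESeq2 1.42.0, limma 3.58.1 and sva 3.50.0.

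The members, the other lists, the pairs and the settings were chosen with earlier results of these data known. Values of each larva are given for members past the threshold (0 here), for cdkal1, for the member with the smallest p and that with the largest change of each modification group, and for partners whose ratio groups do not overlap; ctu1, elp6, gtpbp3, trmt6 and the genes overlapping members were added after their values were seen. Replicate numbers come with no clutch or day, so larvae were not paired, and each p-value reflects the spread among these 8 larvae alone. Rows with no gene name numbered 0 and columns of other samples 0. No 2 libraries of a group agreed within sampling noise (chi-square 20.7 to 80.1 per degree of freedom). edgeR, DESeq2 and limma were tested on simulated data.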

Additional observations from a re-analysis of the deposited data

Results flagged for a closer look

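In pus7, for a pseudouridine synthase, homozygote 2 was marked as an outlier, at 28.6 CPM against 25.1, 24.4 and 24.7 CPM in the other 3 homozygotes. Its gap to the next value was 0.83 of the homozygote range, which was narrow. The SD of log2 CPM was 0.11 among homozygotes and 0.45 among wild-type larvae. Among 98 groups of 4 larvae this was the 1 value so marked, where chance marks about 5% of groups. The value lay within the wild-type range.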

How the results depend on the processing

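Of the 43 members, 26 kept their direction under every alternative tried and 17 changed it under at least 1; ctu2, wdr4, trmt6 and urm1 were called under at least 1. Members called numbered 2 with DESeq2 and 3 without wild-type 1 and homozygote 2, and ranged from 0 to 2 with 1 library left out; they were 0 with other size factors, library totals, no filter, a minimum count of 50, limma voom, the replicate block and 1 surrogate variable. The other tRNA modification genes called were 1 with DESeq2 and 1 without both libraries, and 0 to 1 with 1 left out. All rows called were 123 with library totals, 349 with no filter, 1693 with DESeq2, 3952 without both libraries and 38 to 2130 with 1 left out.

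With library totals the log2 fold change turned positive in elp2 (0.27), elp3 (0.31), elp4 (0.14), urm1 (0.038), cdkal1 (0.061), trmt61a (0.16), trmt112 (0.039), mettl1 (0.12), ftsj1 (0.10), pus3 (0.33), pus7 (0.073), adat1 (0.36), qtrt2 (0.22), dus2 (0.18) and the KEOPS gene tp53rk (0.21). With 1 surrogate variable it turned in elp2 (0.27), elp3 (0.11), ftsj1 (0.031), pus3 (0.13), adat1 (0.093), qtrt2 (0.10), dus2 (0.016), cdk5rap1 (-0.032) and tp53rk (0.010). limma voom gave 0.013 for adat1, and trub1 was -0.063 without both libraries. With 1 library left out a sign changed in elp2 (-0.31 to 0.050), elp3 (-0.20 to 0.030), pus3 (-0.14 to 0.088), trub1 (-0.093 to 0.19), adat1 (-0.17 to 0.23), qtrt2 (-0.34 to 0.064), mto1 (-0.014 to 0.18). With library totals 80.6% of all rows lay above 0, against 51.8% with TMM, so turning positive there was not particular to these genes. Beyond the scaling itself, the cause of these changes was not tested.

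With the replicate block 0 members and 333 rows were called; same-numbered larvae did not deviate together (correlations -0.11 to 0.05), so the numbers were not taken as pairs. With larvae paired by number, the mean ratio difference of each of the 6 pairs equals the unpaired one by construction, so its sign could not change. The smallest possible p of that paired test was 0.125. At a minimum count of 50, 4 members were not tested. Low reads (13 to 31 for gtpbp3) limit what could be detected.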
